A study of Homo sapiens with 6 samples.

Results

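The nuclear genes for subunits of respiratory chain complexes I to IV were followed in Huh7 cells, an established human hepatoma line, after plasmid overexpression of the circular RNA hsa_circ_0098181. Members were chosen by gene symbol alone: NDUFA, NDUFB, NDUFC, NDUFS and NDUFV genes with a number for complex I (NDUFA4, now regarded as a complex IV subunit, was counted here by its name), SDHA to SDHD for complex II, CYC1 and UQCR genes for complex III, and the main COX subunit isoforms for complex IV. The choice gave 60 genes of the 50868 in the table, with 37 in complex I, 4 in complex II, 9 in complex III and 10 in complex IV. All 60 passed the filter on low counts, together with 14995 other genes, and their raw counts ran from 76 to 3338 reads per library.

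Both groups were Huh7 cells transfected with a PLC5-CIR plasmid by lipofection, and their total RNA was sequenced 48 h later. The plasmid carried hsa_circ_0098181 in the overexpression group (n = 3 libraries) and was its control plasmid in the other (n = 3 libraries). Both groups therefore share the transfection, and an untransfected group was not analysed here. The labels do not say whether replicates were separate cultures, so each p-value measures only the spread between these libraries. Values of single libraries are always listed in the order of replicates 1, 2 and 3.

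The respiratory chain sits in the inner mitochondrial membrane. Complexes I and II pass electrons from NADH and succinate to ubiquinone, complex III passes them on to cytochrome c, and complex IV hands them to oxygen, while I, III and IV pump protons that drive the ATP synthase (complex V). Most subunits are encoded in the nucleus, made in the cytosol and imported, but complexes I, III and IV also need subunits encoded in mitochondrial DNA (mtDNA). Hepatocytes are rich in mitochondria. The promoters of many of these nuclear genes are known to bind the factors NRF1 and GABP, a member of the ETS family.

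SOX5, the host gene of the circular RNA, was read first as a check of the labels. It had 26907, 33577 and 24906 counts with overexpression, against 453, 404 and 380 with the control plasmid (log2 fold change 5.88 ± 0.16 SE, edgeR adjusted p = 2.60e-06). Library totals ran from 11130902 to 14138262 counts. Control replicate 1 stood apart: its chi-square per degree of freedom against the other controls was 19.1 and 20.9, compared with 10.6 between those 2 controls and 10.1 to 13.6 within the overexpression group. Mitochondrial genes held 9.29% of its counts, against 6.32% to 7.04% in the other 5 libraries. The hepatoma label was checked on ALB and AFP, the albumin and alpha-fetoprotein genes, whose levels were at least 4365.4 and 10800.6 in normalized CPM (read counts scaled by library size) in every library. Of 9 markers of blood, endothelial, stromal and other epithelial cells, VWF had at most 1 count, KRT7 at most 3, ACTA2 at most 6 and COL1A1 at most 12 counts in any library, and KRT5 had 0 in all. Of 10 hepatoma markers, APOB had an unadjusted p under 0.05 (log2 fold change -0.39 ± 0.17 SE, edgeR adjusted p = 0.797), and control replicate 1 had its highest value, 12939.4 CPM (log2 fold change -0.23 without it). The other-cell markers PECAM1, CD68, COL1A2 and PTPRC had reads in every library. PECAM1 ran from 46.9 to 59.1 CPM, CD68 from 6.64 to 12.8, COL1A2 from 5.35 to 10.3 and PTPRC from 0.766 to 1.86 CPM. All of these were tested, with edgeR adjusted p = 0.797 or above, and log2 fold changes from -0.12 to 0.49.

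Most subunit mRNAs had slightly higher fitted levels with overexpression, but none passed the adjusted threshold. The fitted log2 fold change was above 0 for 54 of 60 members (90% against 50.5% of all 15055 tested genes), with a median of 0.22 against 0.0023 over all tested genes. RLE normalization and a fit without the genes of mtDNA also gave 54. Single members ran from -0.13 for NDUFA11 to 0.79 for NDUFA13. By edgeR, 0 of 60 members had an adjusted p under 0.05, where 0.0399% of all tested genes did, and the members' adjusted p ran from 0.797 to 0.972. DESeq2 and limma on FPKM also called 0 members. At an unadjusted p under 0.05 there were 7 members (11.7% against 5.5% of all tested genes), all with a positive fold change: NDUFA5, NDUFB8, NDUFB9, NDUFS7, UQCRB, COX6C and COX7B. The 3 overexpression libraries all lay above the 3 control libraries for 13 members (21.7% against 6.4% of all tested genes). They lay below them for 0 members (6.5% of all tested genes).

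**Figure D1:**
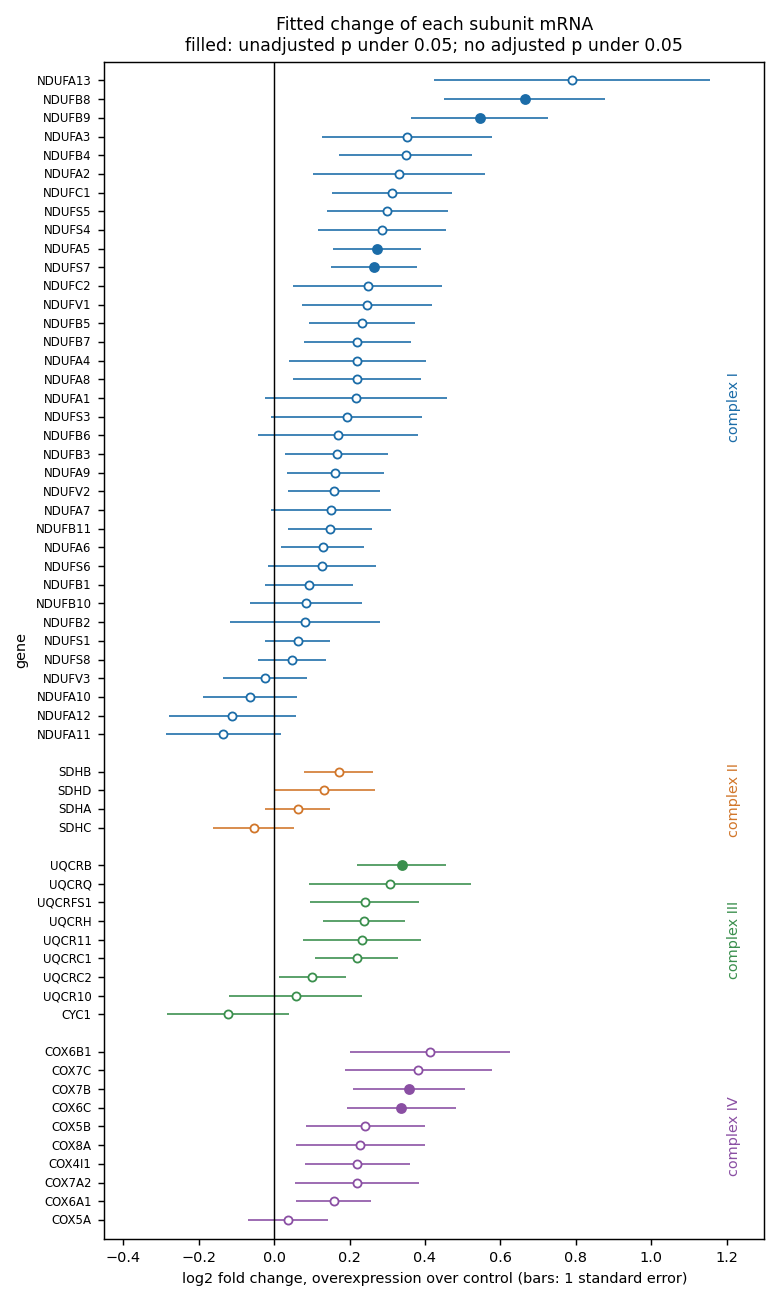
Fitted log2 fold change (x axis, overexpression over control; bars are 1 standard error) of each of 59 of the 60 genes (y axis), grouped by complex. Of these points 53 lie right of 0, the 7 filled points had an unadjusted p under 0.05, and no member had an adjusted p under 0.05.

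Summed over the 60 genes, the levels were 4876.8, 4570.3 and 4534.2 CPM with overexpression. With the control plasmid the sums were 3613.0, 4380.2 and 4302.6 CPM. The low value of control replicate 1 was thus set against 5 sums between 4302.6 and 4876.8 CPM. This library was the lowest of the 6 for 46 of 60 members (76.7% against 26.5% of all tested genes). It was the highest for 4, namely NDUFA10, NDUFA12, NDUFV3 and CYC1. Overexpression replicate 1 was the highest library for 36 members. The median deviation from a member's own mean over 6 libraries (log2 scale) was 0.19, 0.04 and 0.07 in the overexpression libraries, against -0.33, 0.03 and 0.0018 in the controls.

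**Figure D2:**
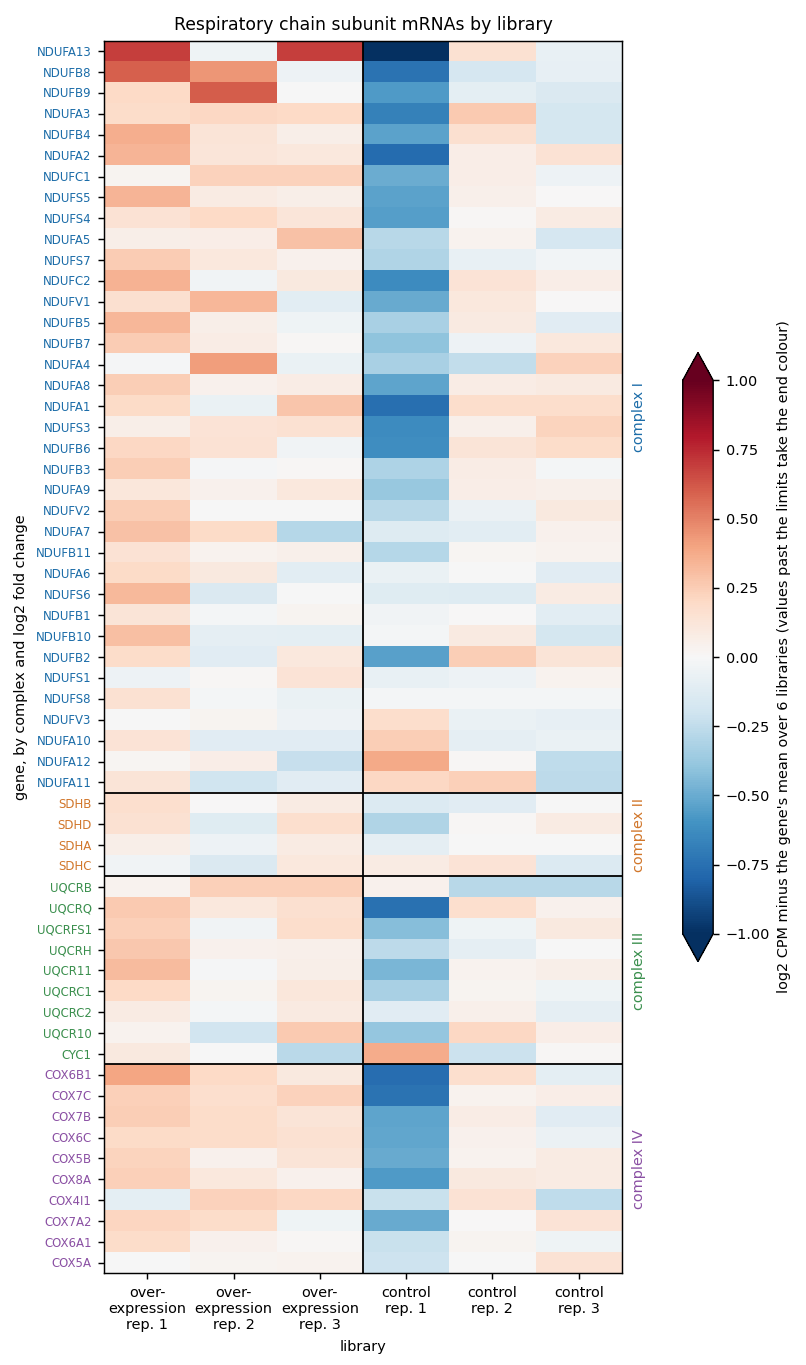
Deviation of log2 CPM from each gene's mean over the 6 libraries (colour, red above and blue below, columns are libraries and rows 59 of the 60 genes by complex). The column of control replicate 1 is blue for most genes, with a median over all 60 of -0.33, and the column of overexpression replicate 1 is mostly red, with a median of 0.19.

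With control replicate 1 left out, the median log2 fold change of the members was 0.09, and 52 of 60 were above 0 in a fit where 51.2% of all tested genes were. Of these, 48 were above 0 in both fits, while 6 members moved below 0 and 4 moved above it. In another 34 members the value kept its sign but was over 1.5 times smaller. Unadjusted p-values under 0.05 were then left in 3 of 60 members, where 4.27% of all tested genes had one. These were NDUFB8, NDUFB9 and UQCRB, and 0 members were called by edgeR. With both number 1 libraries left out, the median was 0.03 and 40 of 60 were above 0, against 50.3% of all tested genes. In bulk RNA of this kind, fewer cells of a type and less RNA per cell cannot be told apart.

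**Figure D3:**
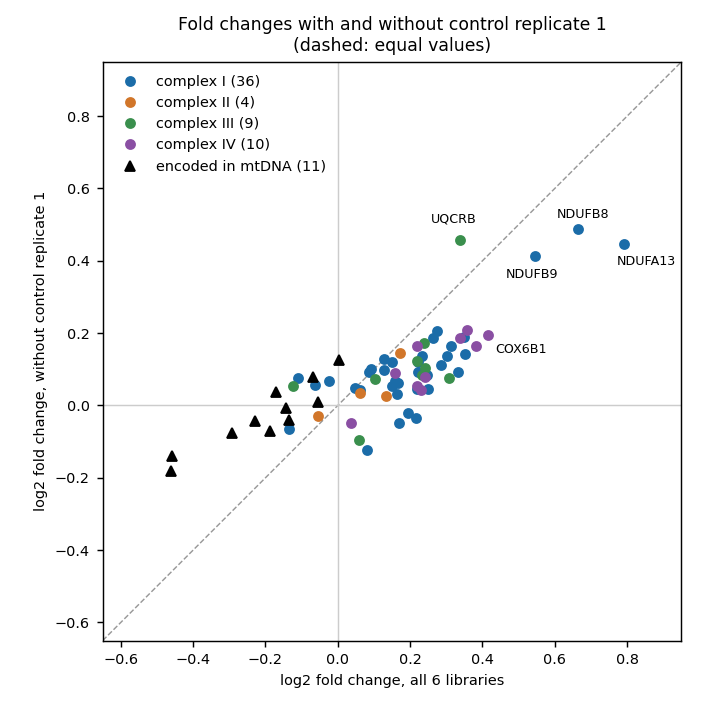
Log2 fold change with all 6 libraries (x axis) and without control replicate 1 (y axis) for 59 of the 60 nuclear members, coloured by complex, and for 11 genes of mtDNA (triangles). Most circles lie below the dashed line of equal values and the triangles above it, and of the few circles above the line UQCRB has the highest values, 0.34 and 0.46.

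Promoter windows were searched for a motif of NRF1 and a motif of the ETS family, the factors named above. Whether these factors bear on the fold changes was not tested. The RefSeq table (GRCh38.p14) held a window from 250 bases before to 50 bases after the start for 50 of the 60 members. On either strand, the NRF1 motif GCATGCGC (GCGCATGC read from the other strand) was found in 10 of 50 members (20%), against 3.68% of all 27305 genes with a window. The ETS motif CCGGAAGT (ACTTCCGG) was found in 8 of 50 (16%), against 4.95% of all. At least 1 motif was present in 16 members (32%, against 8.26%), and both were present in SDHD and COX5B (4%, against 0.377%). No NRF1 match overlapped an ETS match in these members, but in NDUFA8, NDUFB4 and SDHD an NRF1 match on each strand shared letters. The genes with a window include genes that were not tested here, and shares among tested genes alone were not computed. A match is a description of letters and not a bound site.

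The 250 bases before the start are shown for 4 members: NDUFA13, which had the largest fitted difference, NDUFS7, a core subunit of complex I, and SDHD and COX5B, which held both motifs. Capitals mark the motifs lying wholly within the stretch. In NDUFA13 (chr19:19515975-19516224, plus strand), the ETS motif starts at base -10 from the start. In NDUFS7 (chr19:1383657-1383906, plus strand), the NRF1 motif starts at base -73. SDHD (chr11:112086623-112086872, plus strand) has NRF1 matches from bases -110 and -108 and an ETS motif from base -78. COX5B (chr2:97645812-97646061, plus strand) has NRF1 from base -136 and ETS from base -37, and another ETS match from base -5 runs past the end shown. The windows of NDUFA13 and NDUFS7 lie within the gene spans of the table, which begin further upstream.
NDUFA13: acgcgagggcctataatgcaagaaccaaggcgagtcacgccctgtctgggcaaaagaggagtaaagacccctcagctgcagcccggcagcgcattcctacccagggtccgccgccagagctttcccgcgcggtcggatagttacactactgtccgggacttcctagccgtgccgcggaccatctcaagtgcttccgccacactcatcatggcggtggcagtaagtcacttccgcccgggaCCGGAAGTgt
NDUFS7: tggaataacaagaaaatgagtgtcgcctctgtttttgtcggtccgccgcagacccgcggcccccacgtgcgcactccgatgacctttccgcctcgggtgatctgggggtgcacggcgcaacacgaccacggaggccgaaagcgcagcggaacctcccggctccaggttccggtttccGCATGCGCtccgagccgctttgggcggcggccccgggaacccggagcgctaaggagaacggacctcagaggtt
SDHD: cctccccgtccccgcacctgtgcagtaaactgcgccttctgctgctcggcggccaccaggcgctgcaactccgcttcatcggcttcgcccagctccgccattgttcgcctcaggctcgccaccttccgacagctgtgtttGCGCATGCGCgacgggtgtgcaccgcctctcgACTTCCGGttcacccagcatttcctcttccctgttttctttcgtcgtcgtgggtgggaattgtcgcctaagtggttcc
COX5B: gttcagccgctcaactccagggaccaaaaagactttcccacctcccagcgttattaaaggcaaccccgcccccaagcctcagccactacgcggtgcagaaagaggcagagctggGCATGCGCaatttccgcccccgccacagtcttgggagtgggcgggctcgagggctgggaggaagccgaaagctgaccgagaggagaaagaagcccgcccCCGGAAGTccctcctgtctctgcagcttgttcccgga

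Among the 50 members with a window, the 16 with either motif had a median log2 fold change of 0.23, and those with neither had 0.17. Members without a window, NDUFB9, UQCRB and COX6C among them, were not included. The medians with and without the ETS motif were 0.24 and 0.17, and those with and without the NRF1 motif were 0.20 and 0.20. The 2 members with both had 0.19. The 8 members with the ETS motif ranged from 0.06 to 0.79, the highest being NDUFA13. Differences between these medians were not tested. The members with a motif ranged from 0.06 to 0.79, so all of them were above 0 in the fit with every library. Of all 60 members, 54 (90%) were above 0 in that fit.

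The nuclear core subunits of complex I carry the NADH site, the iron-sulphur clusters and most of the ubiquinone pocket. All 6 described here had a log2 fold change above 0, and 1 had an unadjusted p under 0.05. NDUFV1, which binds NADH and the flavin cofactor, had 179.5, 202.7 and 149.2 CPM with overexpression and 113.4, 173.2 and 161.3 CPM with the control plasmid. Control replicate 1 was low, and the groups overlapped (log2 fold change 0.25 ± 0.17 SE, edgeR adjusted p = 0.797). Without that library the difference was 0.09. NDUFV2, its iron-sulphur partner, had 158.2, 132.7 and 132.9 CPM with overexpression and 109.5, 127.7 and 142.4 CPM with the control plasmid (0.16 ± 0.12, here and after other CPM values the fitted log2 fold change ± SE, and 0.07 without control replicate 1). NDUFS1, the largest iron-sulphur subunit, had 227.7, 238.2 and 259.3 CPM against 224.5, 227.7 and 242.2 CPM. Its replicate ranges overlapped and the difference was small (0.06 ± 0.09).

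The other core subunits described here lie towards the ubiquinone pocket. NDUFS3 had 27.8, 29.3 and 29.7 CPM with overexpression and 17.1, 27.6 and 31.1 CPM with the control plasmid (0.19 ± 0.20), and control replicate 1 was the only low value. Without that library the NDUFS3 difference changed sign, to -0.02. NDUFS7, an iron-sulphur subunit next to ubiquinone, had 51.0, 46.0 and 44.0 CPM against 34.7, 40.6 and 42.0 CPM. All 3 overexpression values of NDUFS7 lay above all 3 control values (log2 fold change 0.26 ± 0.11 SE, unadjusted p = 0.048, edgeR adjusted p = 0.797). For 3 against 3 values an exact permutation test cannot go below p = 0.1, which was the value for NDUFS7. Without control replicate 1 its difference was 0.19 (edgeR unadjusted p = 0.117). NDUFS8, the other iron-sulphur subunit of this arm, was almost level, at 128.4, 113.6 and 110.3 against 113.6, 113.8 and 113.7 CPM (0.05 ± 0.09).

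Accessory subunits surround this core and are needed for its assembly and stability. Of 30, 26 were above 0, with a median of 0.22 (0.10 without control replicate 1). All 11 NDUFB genes, which belong to the membrane arm, were above 0 (median 0.17), and 10 of 13 NDUFA genes were (median 0.22). NDUFB9 had 76.4, 101.2 and 66.2 CPM with overexpression and 44.8, 62.1 and 60.2 CPM with the control plasmid. Its groups did not overlap, overexpression replicate 2 being the highest (0.55 ± 0.18, edgeR unadjusted p = 0.016, exact permutation p = 0.1). Without control replicate 1 the NDUFB9 difference was 0.41. NDUFA5, which lies beside the ubiquinone arm, had 63.4, 63.6 and 74.5 against 50.1, 62.3 and 54.2 CPM, again without overlap, though overexpression replicate 1 was close to control replicate 2 (0.27 ± 0.12, edgeR unadjusted p = 0.046, exact permutation p = 0.1). The NDUFA5 difference was 0.21 without control replicate 1 (edgeR unadjusted p = 0.116).

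NDUFB8 and NDUFA13 had the largest differences, and both share their locus with other rows of the table. NDUFB8 had 64.0, 57.4 and 40.6 CPM with overexpression and 25.0, 37.3 and 39.8 CPM with the control plasmid, with no overlap (0.66 ± 0.21, edgeR unadjusted p = 0.014, exact permutation p = 0.1). RP11-411B6.6, which overlaps it on the same strand, had 410, 285 and 602 counts against 259, 569 and 494. The sum of both rows came to 93.0, 77.7 and 89.2 CPM against 48.9, 85.8 and 80.5 CPM. The summed groups overlapped and the log2 fold change of the sum was 0.27. How reads in shared exons were counted is not given in the sources used here.

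NDUFA13 is a complex I subunit that is also known as the cell death regulator GRIM-19. It spans chr19:19515736-19529054 in the table and had 63.6, 38.0 and 63.6 CPM with overexpression and 14.5, 43.6 and 37.3 CPM with the control plasmid. Control replicate 1 was far below the other libraries, while overexpression replicate 2 lay among the other controls, so the groups overlapped (log2 fold change 0.79 ± 0.37 SE, unadjusted p = 0.062, exact permutation p = 0.2). The NDUFA13 difference was 0.45 without control replicate 1. It is overlapped on the same strand by CTC-260F20.3, which had 289, 457 and 181 counts against 402, 301 and 295, and by YJEFN3. CTC-260F20.3 was highest in overexpression replicate 2 and control replicate 1, the libraries where NDUFA13 was lowest in each group. Summed over the 3 rows, the levels were 109.1, 97.8 and 103.3 CPM against 74.4, 97.7 and 83.4 CPM, with a log2 fold change of 0.28 (unadjusted p = 0.041, edgeR adjusted p = 0.796). The spread within groups was thus smaller for the sum than for NDUFA13 alone, and the lowest overexpression sum and the highest control sum were nearly level, at 97.8 and 97.7 CPM.

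Apart from NDUFA11 and NDUFS5, the remaining accessory subunits of complex I had log2 fold changes from -0.11 (NDUFA12) to 0.35 (NDUFA3), and NDUFB11 and NDUFS4 were the members among them whose groups did not overlap. NDUFS4, which is needed to hold the NADH arm in place, had 22.4, 23.3 and 22.0 CPM with overexpression and 13.7, 20.4 and 21.4 CPM with the control plasmid (0.29 ± 0.17, 0.11 without control replicate 1, exact permutation p = 0.1). NDUFB11, encoded on the X chromosome, had 67.2, 62.2 and 62.8 against 49.7, 61.5 and 62.0 CPM (0.15 ± 0.11, 0.05 without control replicate 1). NDUFS4, NDUFB11, UQCRH and COX7C were named after their values were seen. In NDUFA10 and NDUFA12 control replicate 1 was the highest library, and their log2 fold changes moved from -0.06 and -0.11 to 0.06 and 0.07 without it.

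NDUFA11, a membrane arm subunit, had the lowest fold change of all members, at 72.8, 57.8 and 61.5 CPM against 76.7, 78.7 and 55.5 CPM (-0.13 ± 0.15). Its direction also depended on an overlapping row: summed with AC024592.12 on the same strand, the levels were 157.7, 125.2 and 117.5 against 104.4, 109.1 and 114.1 CPM, a log2 fold change of 0.29. NDUFV3 had the lowest level per transcript length of complex I, 9.41 CPM per kb with overexpression and 9.57 CPM per kb with the control plasmid (SD 0.260 and 1.02, n = 3). NDUFS5 had the highest, 263.1 CPM per kb against 213.6 CPM per kb (SD 29.1 and 45.1), with groups that did not overlap (0.30 ± 0.16, 0.14 without control replicate 1). Lengths here were medians over the coding transcripts in GENCODE 29.

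**Figure D4:**
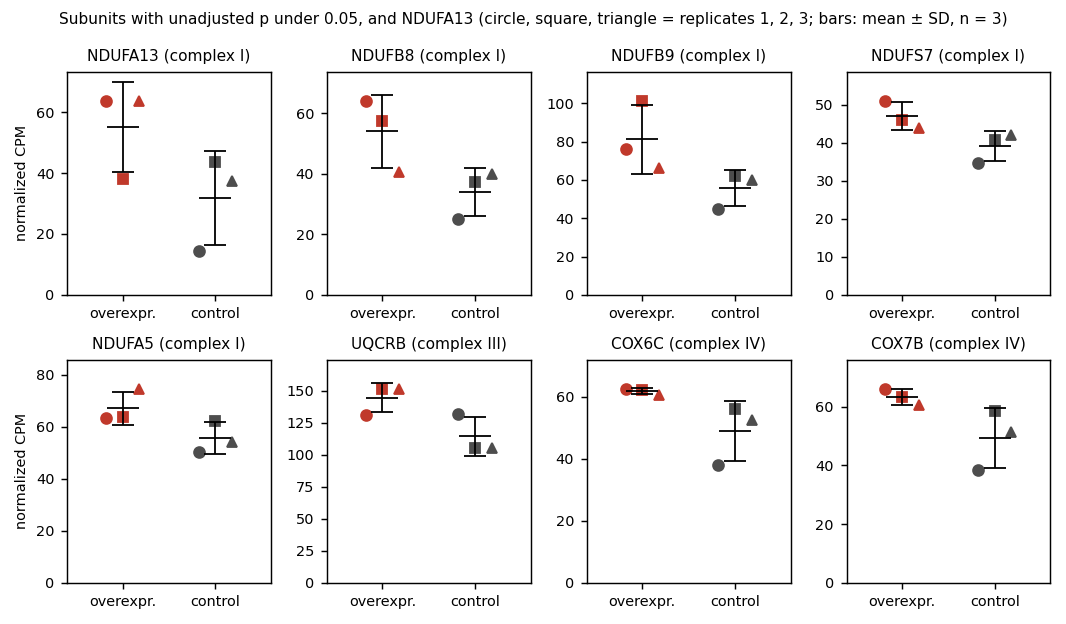
Normalized CPM (y axis, from 0) of the 7 members with an unadjusted p under 0.05 and of NDUFA13 in the 3 overexpression and 3 control libraries (circle, square and triangle are replicates 1, 2 and 3; bars are mean ± SD). Control replicate 1 is the lowest point in every panel but UQCRB, where it is the highest control.

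Complex II, which also works in the citric acid cycle and has no mtDNA-encoded subunit, had the smallest median of the 4 complexes, 0.10 with 3 of 4 members above 0 (0.03 without control replicate 1). SDHA, the flavoprotein that oxidizes succinate, had 104.5, 96.7 and 106.2 CPM with overexpression and 94.2, 99.98 and 100.1 CPM with the control plasmid (0.06 ± 0.09). SDHB, the iron-sulphur subunit, had 99.5, 88.4 and 93.4 against 80.1, 81.5 and 88.2 CPM, and its 3 overexpression values lay just above its controls (0.17 ± 0.09, exact permutation p = 0.1). The membrane anchors differed by no more than their errors. SDHC had 141.4, 130.9 and 156.1 against 153.3, 159.6 and 132.1 CPM (-0.05 ± 0.11), and SDHD had 56.5, 46.7 and 57.2 against 41.2, 51.2 and 53.9 CPM (0.13 ± 0.13, 0.03 without control replicate 1). Rows named as pseudogenes of SDHA and SDHD held 23.1% and 22.9% of the counts of gene and pseudogenes together, so the levels of both are uncertain.

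In complex III, 8 of 9 members were above 0, with a median of 0.23 (0.09 without control replicate 1). UQCRB, a small subunit near the ubiquinone-reducing site, had 131.3, 151.4 and 151.2 CPM with overexpression and 132.2, 105.5 and 105.5 CPM with the control plasmid. Control replicate 1 was the highest control here, unlike for most members, and it overlapped with overexpression replicate 1 (log2 fold change 0.34 ± 0.12 SE, unadjusted p = 0.020, edgeR adjusted p = 0.797). Without control replicate 1 the UQCRB difference was larger, at 0.46, with an unadjusted p = 0.0017 and an edgeR adjusted p = 0.634. UQCRB was also the member of complex III with the highest level per transcript length, 224.2 CPM per kb against 177.4 CPM per kb (SD 17.9 and 23.9).

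The core proteins and electron carriers of complex III ranged from -0.12 to 0.24. UQCRC1, a core protein, had 232.8, 207.2 and 219.5 against 162.0, 207.2 and 197.4 CPM, and its groups did not overlap, although overexpression replicate 2 and control replicate 2 were level at 207.2 CPM (0.22 ± 0.11, 0.12 without control replicate 1). UQCRC2, the other core protein, had 92.6, 86.1 and 93.0 against 80.7, 90.3 and 82.2 CPM (0.10 ± 0.09). UQCRFS1, the Rieske iron-sulphur protein, had 94.2, 78.0 and 90.1 against 59.2, 77.5 and 85.3 CPM (0.24 ± 0.15, 0.10 without control replicate 1) and the lowest level per length of this complex, 25.2 against 21.3 CPM per kb. The hinge protein UQCRH, which helps cytochrome c to dock, had 100.5, 85.8 and 86.2 against 69.4, 78.4 and 83.1 CPM without overlap (0.24 ± 0.11), and the small subunits UQCR10, UQCR11 and UQCRQ were between 0.06 and 0.31. CYC1, which carries the cytochrome c1 haem, was the exception, at 105.5, 98.3 and 81.7 against 127.2, 84.6 and 99.1 CPM (-0.12 ± 0.16). Its highest value was in control replicate 1, and without that library its log2 fold change was 0.05.

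All 10 members of complex IV were above 0, with a median of 0.24 (0.13 without control replicate 1), and control replicate 1 was the lowest library for 9 of them. COX7B had 66.0, 63.2 and 60.5 CPM with overexpression and 38.4, 58.3 and 51.3 CPM with the control plasmid, without overlap (0.36 ± 0.15, edgeR unadjusted p = 0.042, exact permutation p = 0.1). COX6C had 62.5, 62.1 and 60.7 against 37.9, 56.1 and 52.5 CPM, also without overlap (0.34 ± 0.14, edgeR unadjusted p = 0.046, exact permutation p = 0.1). Without control replicate 1 the differences were 0.21 for COX7B and 0.19 for COX6C, with edgeR unadjusted p = 0.075 and 0.069. Both are small membrane subunits around the catalytic centre. Their overexpression replicates lay close together (SD 0.958 CPM for COX6C and 2.73 CPM for COX7B, n = 3), while the controls were spread more widely (SD 9.63 and 10.1 CPM). COX6B1, which faces the cytochrome c site, had the largest fold change of the complex, at 109.9, 95.8 and 89.1 against 49.0, 93.9 and 78.2 CPM. Control replicate 1 was far below the rest and control replicate 2 lay within the overexpression range (0.41 ± 0.21, 0.19 without control replicate 1).

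The larger subunits around the catalytic core ranged from 0.04 to 0.24. COX4I1, the isoform of most tissues and a subunit that binds ATP, had 131.1, 165.2 and 162.2 against 120.2, 155.5 and 117.8 CPM (0.22 ± 0.14). COX5A had the smallest difference of the complex, 93.8, 96.1 and 96.6 against 81.4, 93.9 and 103.9 CPM (0.04 ± 0.11), and it was below 0 without control replicate 1 (-0.05). COX5B, a zinc-binding subunit, had 53.2, 46.8 and 49.8 against 31.9, 46.6 and 48.1 CPM (0.24 ± 0.16, 0.08 without control replicate 1) and the lowest level per length of the complex, 70.1 against 59.3 CPM per kb. COX6A1 had the highest level per length, 271.8 against 243.6 CPM per kb. Of the small subunits left, COX7C had 74.8, 71.4 and 74.7 against 37.7, 65.1 and 66.5 CPM without overlap (0.38 ± 0.20, 0.16 without control replicate 1), and COX7A2 and COX8A stood at 0.22 and 0.23. Isoforms that take the place of these subunits in other tissues were nearly silent: COX4I2, COX6A2, COX6B2, COX7A1 and COX7B2 had 0 counts in all 6 libraries, and COX8C had at most 2.

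Across complexes, the median level per length was 47.4 CPM per kb in complex I, 68.1 in complex II, 80.2 in complex III and 157.7 in complex IV, with ranges that overlapped. SDHC had the highest level of all members, at 310.5 CPM per kb with overexpression and 322.4 CPM per kb with the control plasmid (SD 27.5 and 31.3). These orders rest on the transcript length used. In the deposited FPKM values SDHC had a mean of 8.05, from a length of 18038 bases where the GENCODE 29 median was 460 bases.

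Genes that act with these subunits were read from lists of the pathway. Of 16 subunits of complex V, the ATP synthase, all 16 were above 0 (median 0.19, 0.10 without control replicate 1) and 0 had an unadjusted p under 0.05. Of 45 assembly factors of complexes I to IV, 39 were above 0 (median 0.12, 0.07 without control replicate 1) and 3 had an unadjusted p under 0.05 (6.67% against 5.5% of all tested genes). These were NDUFAF6 of complex I (0.40 ± 0.16), UQCC2 of complex III (0.45 ± 0.17) and COX16 of complex IV (0.46 ± 0.16), and each had an edgeR adjusted p = 0.797. COX7A2L, which joins complexes III and IV into supercomplexes, had 56.2, 47.3 and 57.9 CPM against 43.9, 47.9 and 40.6 CPM (0.29 ± 0.12, edgeR adjusted p = 0.797). CYCS, the gene of cytochrome c, had a log2 fold change of 0.23 (0.12 without control replicate 1) and an unadjusted p of 0.077. Of 12 regulators, 7 were above 0 (median 0.05) and 0 had an unadjusted p under 0.05. NRF1 stood at -0.02 and GABPA at 0.03, and PPARGC1A, the coactivator PGC-1 alpha, was low at 4.9 to 8.8 CPM.

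Most subunits encoded in mtDNA had fold changes below 0. Of 11, 10 were below 0 (median -0.17), and control replicate 1 was the highest of the 6 libraries for 8 of them. MT-ND5 of complex I had 5383.3, 5929.9 and 5589.1 CPM with overexpression and 10798.7, 6145.9 and 6294.6 CPM with the control plasmid (-0.46 ± 0.21). MT-ND4L, another membrane arm subunit, had 2358.6, 2388.3 and 2494.9 CPM against 4483.8, 2675.0 and 2803.1 CPM (-0.46 ± 0.19, unadjusted p = 0.037, edgeR adjusted p = 0.797). In both genes the 3 overexpression values lay below the 3 control values. Without control replicate 1 the difference was -0.14 for MT-ND5 and -0.18 for MT-ND4L, and the median of the 11 genes was -0.04. Control replicate 1 exceeded the mean of the other controls by a median of 0.41 on the log2 scale for the mtDNA genes, and lay below it by 0.34 for the nuclear members (median difference -0.34). The share of mtDNA reads in this library and its low nuclear subunit levels moved together, and their part in the result was not tested. With the mtDNA genes left out before normalization, the median of the nuclear members was 0.22 as before. The counts of the other genes are the same in that fit, so it cannot show what part the mtDNA share had.

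Short genes in general deviated in the same libraries. Of 993 tested protein-coding genes with a median coding transcript of at most 1000 bases and outside the 60, 76.6% had a log2 fold change above 0, with a median of 0.14, and control replicate 1 was the lowest library for 52.6%. Genes over 5000 bases showed the opposite, with 24.9% above 0 and a median of -0.11. Among the members, 41 had transcripts of at most 1000 bases, of which 95.1% were above 0 (median 0.22). Control replicate 1 was the lowest library for 78.0% of these. The 19 longer members had a median of 0.15, and 78.9% were above 0. With each library's trend by transcript length removed, the members' median was 0.14, and 50 of 60 (against 50.8% of tested genes) were above 0. An unadjusted p under 0.05 was then found for 3 of 60 members, where 4.93% of all tested genes had one. With lengths from the deposited FPKM instead, the median was 0.17 and 53 of 60 were above 0 (50.1% of all tested genes). In that fit 5 of 60 members had an unadjusted p under 0.05 (5.31% of all tested genes).

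**Figure D5:**
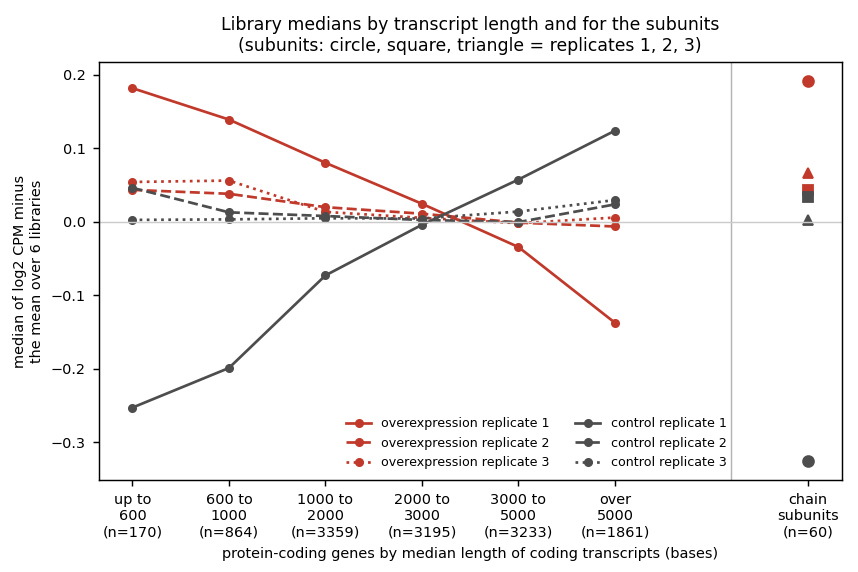
Median deviation of log2 CPM from the mean over 6 libraries (y axis) for tested protein-coding genes by median coding transcript length in bases (x axis, lines are libraries) and for the 60 subunits (right). Control replicate 1 runs from -0.25 in the shortest class to 0.12 in the longest and overexpression replicate 1 from 0.18 to -0.14, and for the subunits the same 2 libraries are at -0.33 and 0.19.

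Counts of several members are uncertain because other rows overlap or resemble them. Rows named as pseudogenes existed for 31 members, and besides SDHA and SDHD the largest shares were 19.0% for UQCRFS1, 15.7% for NDUFV2, 9.77% for COX6A1 and 4.86% for NDUFA5. With these rows added, the median stayed at 0.22 and 6 members had an unadjusted p under 0.05 (5.5% of all tested genes). On the same strand, ELAVL1 overlaps NDUFA7 and PTPMT1 overlaps NDUFS3, with 450% and 85.9% of the member's mean count. Summed with same-strand rows, NDUFA7 had a log2 fold change of 0.12 and NDUFS3 of 0.15. On the opposite strand, NAA15 overlaps NDUFC1, IK overlaps NDUFA2 and CELF1 overlaps NDUFS3, with 847%, 802% and 413% of the member's mean count. There, too, HIF1AN overlaps NDUFB8 (307%), VPS13B overlaps COX6C (95.6%), and MTSS1 and TATDN1 overlap NDUFB9 (49.8% and 32.1%), and whether strand was used in counting is not given in the sources used here.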

How the data were processed

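RNA sequencing of total RNA from 6 Huh7 libraries was analysed. The authors deposited raw read counts per gene and FPKM values per gene and library. The submitters' processing notes name TopHat2 2.0.9 and hg38; the counting tool, annotation release and strand handling are not given in the sources used here. Of the members, 58 of 60 had the same coordinates in GENCODE 29 (GRCh38).

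Counts were tested by the quasi-likelihood functions glmQLFit and glmQLFTest of edgeR 4.0.16 (R 4.3.3) on group alone, two-sided. Low genes were removed by filterByExpr (minimum count 10), libraries were scaled by TMM, and p-values were adjusted after Benjamini-Hochberg over 15055 genes (threshold 0.05). CPM used TMM library sizes. The exact permutation tests, two-sided, used log2(CPM + 0.5) of 3 against 3 libraries. Within groups no library pair agreed within counting noise. Fits were tested on simulated data.

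Named members were the catalytic or core subunits, members at an unadjusted p under 0.05, and the extremes of fold change and of level per length in each complex; 1 member enters the counts and medians but is not reported here by itself. Members and lists were chosen with earlier results of these data known. Members were described by counts and medians beside those of all tested genes.

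Alternatives were RLE normalization, DESeq2 1.42.0, no filter, a mean of at least 50 counts, limma 3.58.1 on log2(FPKM + 1) where 3 libraries or more reached 1 FPKM, a replicate block, mtDNA genes left out, length and GC corrections by splines with 5 degrees of freedom, pseudogene or same-strand overlapping rows added, and libraries left out.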

Additional observations from a re-analysis of the deposited data

How the results depend on the processing

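No alternative gave a member with an edgeR, DESeq2 or limma adjusted p under 0.05, and the lowest was 0.262, for UQCRB with both number 1 libraries left out (log2 fold change 0.52). Of 551 recomputed values of the 29 named members, 530 kept their direction and 21 changed sign. No adjusted p of these values was under 0.05, so the count rests on signs alone, and their sizes were not compared in it. The cause of the sign changes was not tested. Counts of the 60 members at an unadjusted p under 0.05 follow, with the share of all tested genes in the same fit. The main fit had 7 members (5.5%). There were 11 without the filter on low counts (4.8%), 5 with DESeq2 (4.4%) and 6 with limma on log2(FPKM + 1) (6.0%). The transcript length correction gave 3 (4.9%), and the transcript length and GC correction gave 4 (4.7%). With both number 1 libraries left out there was 1 (3.7%). Leaving out each library in turn gave 2 without overexpression replicate 1 (3.3%) or 2 (4.4%) and 3 without overexpression replicate 3 (4.3%). Among the controls it gave 3 without replicate 1 (4.3%), 12 without replicate 2 (7.4%) and 7 without replicate 3 (7.0%). The median over all members ran from 0.09 (without control replicate 1) to 0.27 in those fits, and was 0.15 without overexpression replicate 1. With both number 1 libraries left out the medians were 0.030 for all members, 0.019 for complex I, 0.0025 for complex II and 0.046 for complex III.

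Sign changes were as follows. With both number 1 libraries left out NDUFS8 was -0.022, NDUFV2 -0.023, NDUFV3 0.063, SDHD -0.015 and COX5A -0.038. With the length correction from deposited FPKM, SDHC was 0.024 and COX5A -0.027. NDUFV3 was 0.0031 with limma on FPKM and 0.0042 after the transcript length and GC correction, which also gave -0.13 for NDUFS8 and -0.038 for COX5A. The transcript length correction gave -0.047 for NDUFS8 and -0.051 for COX5A. NDUFA11 was 0.29 with its same-strand overlapping row added. Leaving out each library in turn, NDUFS3 ran from -0.020 to 0.37, NDUFS8 from -0.022 to 0.091, NDUFV3 from -0.069 to 0.069, SDHC from -0.13 to 0.0033, CYC1 from -0.25 to 0.053 and COX5A from -0.050 to 0.12.

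With a replicate block, 6 members had an unadjusted p under 0.05 (4.39% of all tested genes), 0 were called and the median was 0.23. The deviations of equally numbered libraries correlated at -0.03, -0.01 and -0.03, which cannot show whether those libraries were handled together. With 3 libraries per group and a biological coefficient of variation of 16.1%, the standard errors of the members' log2 fold changes ran from 0.09 (SDHA) to 0.37 (NDUFA13), and 40 of 60 members had a log2 fold change larger in size than its standard error. The transcript length, GC, same-strand and number 1 alternatives were chosen after seeing the data.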
